A study of Mus musculus with 6 samples.

Results

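The genes described here encode the machinery that copies DNA in S phase, and they were followed in N2a cells with normal and reduced expression of *Npm1*. The list holds 45 mouse genes, taken by symbol, and all 45 were found among the 26656 Ensembl gene IDs of the deposited tables. By role they fall into origin licensing and the replicative helicase (18 genes), DNA polymerases and primase (7 genes), the sliding clamp, its loader, single-strand binding, nuclease and ligase (11 genes), nucleotide supply (5 genes), and histone supply with the transcription factor *E2f1* (4 genes). None of the 45 genes passed an adjusted p of 0.05 between NPM1 KD and CTR in any of the fits made, and the sizes of the differences that could and could not be seen are given below.

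N2a is a mouse neuroblastoma line, and RNA was taken from it 72 h after transfection, on day 3 in vitro. The 3 CTR libraries came from cells that received pLKO.1-shCTR (Sigma, Non Target #3), and the 3 NPM1 KD libraries from cells that received pLKO.1-shNpm1 (Sigma, TRCN0000115430). Both conditions carry the label WT for genotype, and puromycin at 9.3 µg/ml is described for the knockdown experiments from 24 h after transfection. The experiment asked whether lower NPM1 levels alter the transcriptome, and it rests on 1 cell line and 1 shRNA against *Npm1*. The design names 3 biological replicates per condition and the treatment protocol 2, so p-values refer to these libraries only.

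DNA replication starts at origins. The origin recognition complex, with CDC6 and CDT1, loads the MCM helicase onto DNA before S phase, and CDC45 and the GINS complex then turn it into an active helicase. Polymerase alpha with primase lays down short primers, polymerases epsilon and delta extend them, the PCNA clamp holds the polymerase on DNA, and FEN1 and LIG1 finish the lagging strand. E2F transcription factors switch on many of these genes when dividing cells pass from G1 into S phase.

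The libraries held cDNA amplified by PCR and were sequenced as nanopore long reads, and 2 kinds of value were used. The deposited rlog value is a level on the log2 scale, normalised for depth, in which differences of genes with few reads are pulled in. It was rounded to whole numbers wherever its size is at least 1, so differences below 1 can be hidden. Larger differences in reads can be hidden too, since they are pulled in before the rounding. A single value across the 6 libraries was held by 39.5% of the 5972 genes tested. The authors' mean normalised count of each gene keeps all its decimals, and from it the whole reads of each library could be worked out for genes with few reads. A normalised count below is such a read number divided by the size factor of its library. Size factors were 1.24, 1.30 and 1.11 in CTR replicates 1 to 3 and 0.784, 0.833 and 0.961 in NPM1 KD replicates 1 to 3, so the control libraries were 1.42 times deeper on average. Libraries were shallow, with mean normalised counts that add up to 841220 over all genes. Reads were obtained for 21 of the 45 genes, and the mean normalised counts of the 45 run from 0.412 to 107 with a median of 21.4. These counts are not divided by gene length and are not compared between genes. Counting intervals below pool the reads of each group and leave out the spread between libraries. PCR copies are not independent molecules, so these intervals may be too narrow for counting error as well.

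The target of the knockdown was checked first. *Npm1* (ENSMUSG00000057113), which encodes a nucleolar chaperone, had an rlog value of 10 in each CTR library and of 8 in each NPM1 KD library. The difference was −2 (SE 0.33, n = 3 per group, adjusted p = 3.18e-06 from limma). Neither group had any spread, so this error comes from a variance allowed for rounding and from other genes. Errors and p-values on rlog values below rest in large part on that variance too. Of 10 neuronal markers of N2a cells, 8 had a mean normalised count of at least 10 and *Nefl* and *Nefm* were at 0. None of those 8 passed an adjusted p of 0.05 from limma, although the rlog values of *Tubb3*, *Stmn2* and *Gap43* were 1 lower in every NPM1 KD library. Of 10 markers of fibroblasts, immune cells, astrocytes and endothelium, 7 were at 0 and the highest, *Pecam1*, had a mean normalised count of 2.66.

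For the comparison on rlog values, 33 of the 45 genes reached the minimum mean normalised count of 10. At an adjusted p below 0.05, 0 of the 33 were higher and 0 were lower upon NPM1 KD, while 1 had an unadjusted p below 0.05. A drop of 1 in every NPM1 KD library, without spread within groups, did not pass in this fit. *Dnmt1*, of the wider list described below, had such values and an adjusted p of 0.0757 from limma. The absence of calls therefore does not exclude differences of that size. Over all 5972 genes tested, 0.067% were called higher and 0.419% lower, and 822 had an unadjusted p below 0.05. No gene of the 33 had its 3 NPM1 KD values all above or all below its 3 CTR values, a separation found upwards in 2.11% and downwards in 3.28% of all tested genes. The mean rlog value was higher upon NPM1 KD in 4 of the 33 genes, lower in 13 and equal in 16, which is 12.1%, 39.4% and 48.5%. Over all tested genes the shares were 25.2%, 27.8% and 47.0%. The median difference was 0 both for the 33 genes and for all tested genes, and the mean differences were −0.13 and −0.02. The map of rlog values shows how few of the 45 genes changed their whole-number value in more than 1 library.

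**Figure D1:**
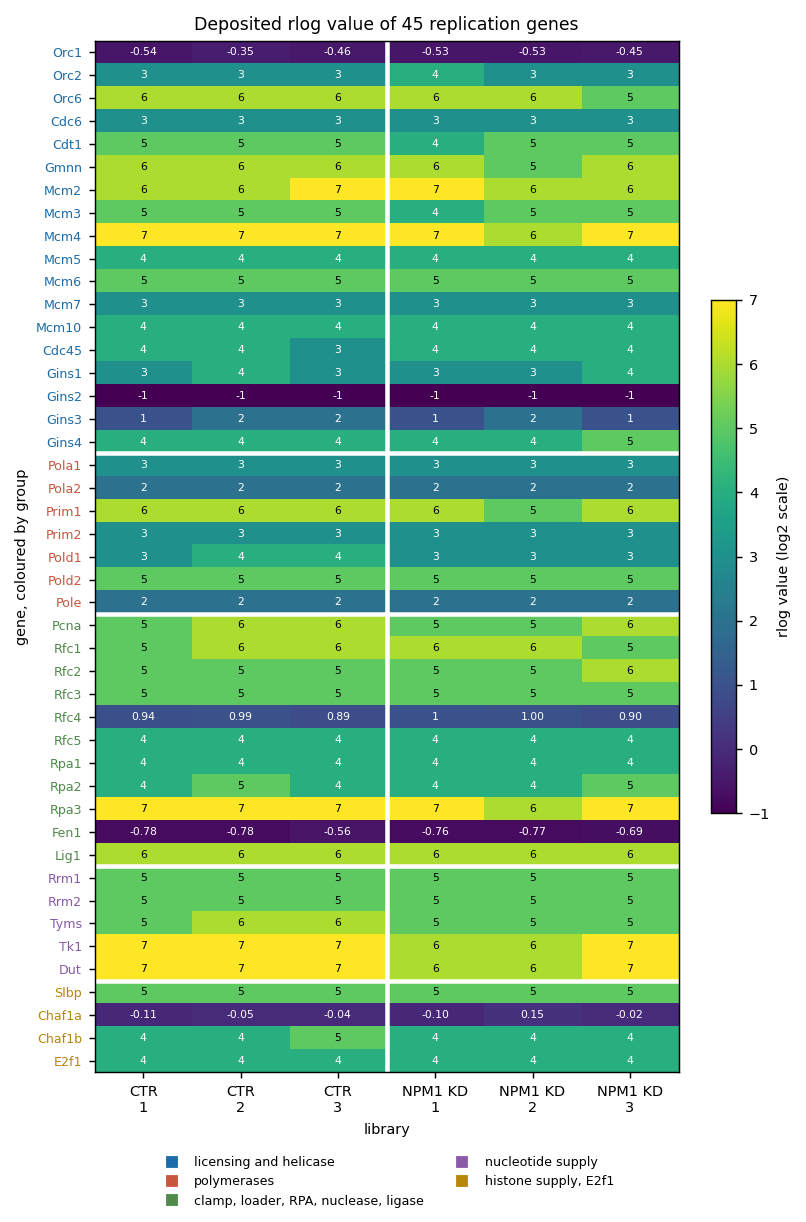
Deposited rlog value (log2 scale, colour and printed number) of the 45 genes in rows, ordered and coloured by role, in the 3 CTR and 3 NPM1 KD libraries in columns. *Tk1* and *Dut* read 7 in all CTR libraries and 6 in NPM1 KD replicates 1 and 2, while 12 of the 33 genes tested hold a single value across the 6 libraries.

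For the comparison on whole reads, limma with voom weights was run on 4891 genes with a mean normalised count of 5 to 30 whose reads had a single solution. From a mean count of 10 on, the solution also rests on a model of the rlog values. That model was checked only below this count, and *Mcm5*, *Pold1* and *E2f1* lie above it. Of the 45 genes, 13 were in this fit, 9 of them shared with the rlog fit. None was called higher or lower at an adjusted p below 0.05, against 0.491% of all genes in the fit called higher and 1.12% called lower. An unadjusted p below 0.05 was found for 2 of the 13 genes and for 795 of all genes. The 3 normalised counts of NPM1 KD lay above all 3 of CTR for *Pola1* alone, 1 of 13, and below them for *Mcm5*, *Pold1* and *E2f1*, 3 of 13. The background shares for these separations were 9.16% upwards and 13.5% downwards. The median log2 fold change of the 13 was −0.29, beside −0.04 for all genes in the fit. With the fit limited to a mean count of 5 to 15, where nearly every gene had a single solution, 0 of 3545 genes were called and 451 had an unadjusted p below 0.05. From a mean count of 10, 2 of 2690 genes were called higher and 0 lower, and 420 had an unadjusted p below 0.05.

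In origin licensing and the helicase, 0 of 18 genes passed the adjusted threshold, and the members did not move in one direction. On rlog values 13 of the 18 were tested, of which 3 were higher, 5 lower and 5 equal upon NPM1 KD. On whole reads 7 were tested, 4 higher and 3 lower, with a median log2 fold change of 0.09.

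The MCM subunits form the ring of the helicase. *Mcm4* (ENSMUSG00000022673) read 7, 7 and 7 in the CTR libraries and 7, 6 and 7 in the NPM1 KD libraries on the rlog scale, a difference of −0.33 (SE 0.34, adjusted p = 0.719 from limma). Only NPM1 KD replicate 2 stood below the rest, and the groups overlapped. *Mcm2* (ENSMUSG00000002870) read 6, 6 and 7 in CTR against 7, 6 and 6 in NPM1 KD, a difference of 0 with a 95% interval of −0.67 to 0.67. *Mcm3* differed by −0.33, with 1 NPM1 KD library at 4 and the other 5 libraries at 5. *Mcm6* read 5 in all 6 libraries.

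*Mcm5* (ENSMUSG00000005410) had an rlog value of 4 in all 6 libraries. Its normalised counts were 19.3, 20.0 and 16.2 in CTR, from 24, 26 and 18 reads. In NPM1 KD they were 7.66, 15.6 and 14.6, from 6, 13 and 14 reads. All 3 NPM1 KD values were below all 3 CTR values, but the gap between the nearest libraries was small. The log2 fold change was −0.56 (SE 0.36, adjusted p = 0.439 from limma with voom weights, n = 3 per group). *Mcm7* had 10, 7 and 12 reads in CTR against 2, 8 and 4 in NPM1 KD. It differed by −0.58 on the log2 scale, with a 95% interval of −1.81 to 0.64. *Mcm10*, which helps to activate the helicase, differed by −0.19, and its 3 CTR normalised counts (15.3, 16.9 and 17.1) lay inside the spread of the NPM1 KD counts (9.61 to 21.9).

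Loading factors gave differences of both signs. *Cdc6* (ENSMUSG00000017499), a loader of the helicase, had normalised counts of 8.06, 9.98 and 4.49 in CTR against 15.3, 8.41 and 13.5 in NPM1 KD. The log2 fold change was 0.71 (SE 0.43, adjusted p = 0.407 from limma with voom weights), and NPM1 KD replicate 2 fell among the controls. *Orc2*, a subunit of the origin recognition complex, differed by 0.47 on whole reads and by 0.33 on rlog values, and its groups overlapped. *Cdt1*, the partner of CDC6, and *Gmnn*, the inhibitor of CDT1, each differed by −0.33 on rlog values through 1 NPM1 KD library. *Orc6*, another subunit of the origin recognition complex, also differed by −0.33 on rlog values.

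Of the activating factors, *Cdc45* differed by 0.11 and *Gins1* by 0.09 on whole reads, and the sign of both changed when CTR replicate 3 or NPM1 KD replicate 3 was left out. *Gins1* had 3, 10 and 19 reads in the NPM1 KD libraries, a wide spread within 1 group. *Gins4* was 1 higher on the rlog scale in NPM1 KD replicate 3 alone, a difference of 0.33. The remaining members of the group had too few reads for either fit. *Gins3* had 13 reads in CTR and 6 in NPM1 KD, a depth-corrected ratio of 0.655 (exact 95% counting interval 0.204 to 1.85). *Orc1* had 4 and 1 reads, a ratio of 0.355 (0.00721 to 3.59). *Gins2* had 1 read in each CTR library and 0 in each NPM1 KD library, and no ratio is given for so few reads.

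E2F sites are a textbook feature of the promoters of these genes, and the promoter windows of RefSeq (GRCm38.p6, 250 bases before to 50 after each start site) were searched on both strands for 4 spellings of 8 letters, TTTCCCGC, TTTGGCGC, TTTGCCGC and TTTCGCGC. Windows were found for 37 of the 45 genes. A spelling was present in 12 of their 43 windows (27.9%) and in 744 of all 32851 windows (2.26%). The letters CCAAT, which are bound by NF-Y, were in 60.5% of the members' windows and in 37.4% of all windows. A match is a description of the letters and not a measured site. Stretches of 60 bases upstream of the start site of 4 genes are shown as examples of the spellings. They are written 5′ to 3′ on the strand of the gene, and capitals mark the E2F spellings of either strand, which overlap each other in *Mcm5* and *Mcm6*.
Mcm5: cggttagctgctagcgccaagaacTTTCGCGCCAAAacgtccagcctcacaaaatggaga
Mcm6: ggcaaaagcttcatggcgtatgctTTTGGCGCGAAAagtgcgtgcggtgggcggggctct
Cdc6: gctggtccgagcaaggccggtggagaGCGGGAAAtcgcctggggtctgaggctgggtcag
Pola1: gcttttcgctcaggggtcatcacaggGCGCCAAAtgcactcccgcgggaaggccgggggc

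The *Mcm5* stretch is chr8:75109332-75109391 on the plus strand, 118 to 177 bases before the start site, and the *Mcm6* stretch is chr1:128359780-128359839 on the minus strand, 75 to 134 bases before it. The *Cdc6* stretch is chr11:98907987-98908046 on the plus strand and the *Pola1* stretch is chrX:93632260-93632319 on the minus strand, both 105 to 164 bases before the start site. The 12 genes with a spelling were *Cdc6*, *Cdt1*, *Gins3*, *Lig1*, *Mcm3*, *Mcm5*, *Mcm6*, *Mcm7*, *Orc1*, *Pola1*, *Pold1* and *Rfc3*. On whole reads, *Cdc6* and *Pola1* differed by 0.71 and 0.47, while *Mcm5*, *Mcm7* and *Pold1* differed by −0.56, −0.58 and −1.02.

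Among the polymerase genes, *Pold1* had the largest fitted difference and none of the 7 passed the adjusted threshold. *Pold1* (ENSMUSG00000038644) encodes the catalytic subunit of polymerase delta. Its reads numbered 15, 22 and 18 across the CTR libraries and 5, 5 and 8 across the NPM1 KD libraries. As normalised counts these are 12.1, 16.9 and 16.2 against 6.38, 6.00 and 8.33. Every NPM1 KD library was below every CTR library. The log2 fold change was −1.02 (SE 0.44, 95% interval −1.91 to −0.13, n = 3 per group, unadjusted p = 0.026, adjusted p = 0.243 from limma with voom weights). Over the other settings its adjusted p ran from 0.136 to 0.497 in the whole-read fits. On the rlog scale *Pold1* read 3, 4 and 4 in CTR and 3 in each NPM1 KD library, a difference of −0.67 (SE 0.38, adjusted p = 0.397 from limma).

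*Pola1* (ENSMUSG00000006678), the catalytic subunit of polymerase alpha, had a difference of the opposite sign. Its normalised counts were 6.44, 7.68 and 7.18 in CTR against 14.0, 8.41 and 8.33 in NPM1 KD. The groups did not overlap, but 2 of the 3 NPM1 KD libraries lay less than 1 normalised count above the highest control. The log2 fold change was 0.47 (SE 0.43, adjusted p = 0.609 from limma with voom weights). *Prim2*, the large primase subunit, differed by −0.42 with an interval of −1.49 to 0.65.

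*Prim1* (ENSMUSG00000025395), the small primase subunit, read 6 in every library except NPM1 KD replicate 2, which read 5, a difference of −0.33 (SE 0.34, adjusted p = 0.719 from limma). *Pold2* (ENSMUSG00000020471), the second subunit of polymerase delta, read 5 in all 6 libraries. *Pola2*, a regulatory subunit of polymerase alpha, had 18 reads in CTR and 12 in NPM1 KD, a depth-corrected ratio of 0.946 (exact 95% counting interval 0.416 to 2.08). *Pole*, the catalytic subunit of polymerase epsilon, had 22 and 10 reads, a ratio of 0.645 (0.273 to 1.42).

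**Figure D2:**
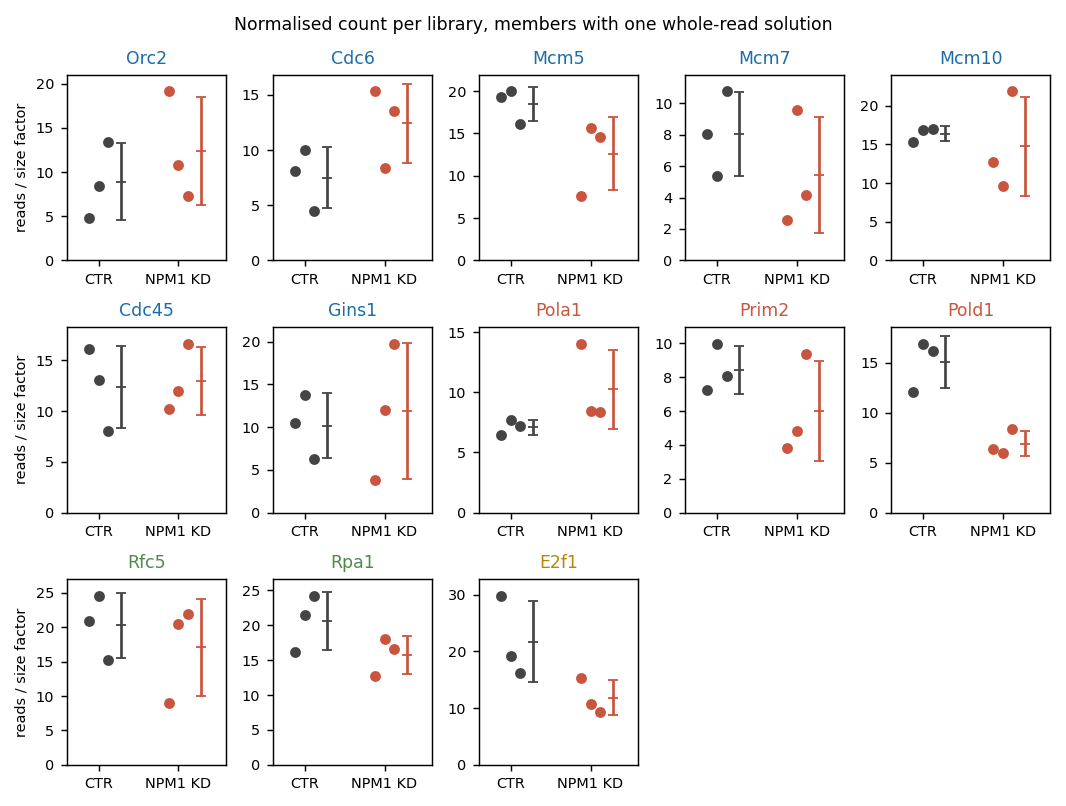
Normalised count (reads divided by the size factor, linear axis from 0) of the 13 genes in the whole-read fit, with 1 panel per gene, 1 point per library and the mean ± SD of each group (n = 3) beside the points. Points are in the order of replicates 1 to 3. The groups are apart in *Mcm5*, *Pola1*, *Pold1* and *E2f1*, and overlap in the other 9.

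Of the clamp, loader, single-strand binding, nuclease and ligase genes, 9 were tested on rlog values, and 0 passed the adjusted threshold. The mean was higher upon NPM1 KD in 1, lower in 2 and equal in 6 (66.7%, beside 47.0% of all tested genes). *Rfc3*, *Rfc5*, *Rpa1* and *Lig1* held a single rounded value, which fixes a difference of 0 in advance. *Rpa3* (ENSMUSG00000012483), a subunit of the single-strand binding complex, read 7 in every library except NPM1 KD replicate 2, which read 6, a difference of −0.33 (SE 0.34, adjusted p = 0.719 from limma). *Lig1* (ENSMUSG00000056394), which seals the nicks of the lagging strand, read 6 in all 6 libraries. *Pcna*, the sliding clamp, read 5, 6 and 6 in CTR against 5, 5 and 6 in NPM1 KD, a difference of −0.33 (SE 0.34). These groups overlapped.

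*Rfc1* to *Rfc5* encode the loader of the clamp. *Rfc2* differed by 0.33 through NPM1 KD replicate 3 alone, and *Rfc1* and *Rfc3* differed by 0 on rlog values. *Rfc5* differed by −0.29 on whole reads, with normalised counts of 20.9, 24.6 and 15.3 in CTR against 8.93, 20.4 and 21.9 in NPM1 KD. Without NPM1 KD replicate 1 its difference was 0.08, so the sign rested on that library. *Rfc4* had 6 reads in each group, a depth-corrected ratio of 1.42 (exact 95% counting interval 0.379 to 5.31). *Rpa1*, the largest subunit of the single-strand binding complex, had normalised counts of 16.1, 21.5 and 24.2 in CTR against 12.8, 18.0 and 16.7 in NPM1 KD, a log2 fold change of −0.34 (SE 0.33). *Rpa2*, the middle subunit, differed by 0 on rlog values. *Fen1*, the flap nuclease, had 3 reads in CTR, all in replicate 3, and 1 in NPM1 KD, a ratio of 0.473 (0.00901 to 5.89).

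The nucleotide supply genes split into 3 that read lower in most NPM1 KD libraries and 2 that did not move on the rlog scale. Their median difference on rlog values was −0.67, beside 0 over all genes tested, and 0 of 5 passed the adjusted threshold. Other nucleotide supply genes, which are in the wider list described below, showed no common direction. Of 13 of these tested on rlog values, 2 were higher, 4 lower and 7 equal, with a median of 0. Values that are equal after rounding do not exclude a drop. On whole reads 5 of 9 were higher and 4 lower. *Tyms* (ENSMUSG00000025747), thymidylate synthase, read 5, 6 and 6 in CTR against 5, 5 and 5 in NPM1 KD. The groups overlapped at 5 through CTR replicate 1. The difference was −0.67 (SE 0.34, 95% interval −1.33 to −0.01, unadjusted p = 0.0482, adjusted p = 0.329 from limma, n = 3 per group).

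*Tk1* (ENSMUSG00000025574), thymidine kinase of the salvage pathway, read 7, 7 and 7 in CTR against 6, 6 and 7 in NPM1 KD. *Dut* (ENSMUSG00000027203), the enzyme that removes dUTP, had the same 6 values. In both genes NPM1 KD replicates 1 and 2 were 1 below the controls and replicate 3 was level with them. Each differed by −0.67 (SE 0.34, 95% interval −1.34 to 0.01, adjusted p = 0.329 from limma). Over the other settings of the rlog fit the adjusted p of *Tyms* ran from 0.241 to 0.789, and that of *Tk1* and *Dut* from 0.230 to 0.809. *Rrm1* and *Rrm2*, the subunits of ribonucleotide reductase, which makes deoxyribonucleotides, read 5 in all 6 libraries. Their fitted intervals of −0.66 to 0.66 come from the variance allowed for rounding and from other genes, since the 6 values have no spread. These intervals do not bound the change, and the read sets described below let *Rrm2* reach 0.83.

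In the last group, *E2f1* was the one gene with an unadjusted p below 0.05. *E2f1* (ENSMUSG00000027490), the transcription factor of S phase entry, read 4 in all 6 libraries on the rlog scale. It had 37, 25 and 18 reads in CTR libraries and 12, 9 and 9 in NPM1 KD libraries. As normalised counts these are 29.8, 19.2 and 16.2 against 15.3, 10.8 and 9.37. All NPM1 KD libraries were below all CTR libraries, with the nearest pair at 16.2 and 15.3. The log2 fold change was −0.85 (SE 0.36, 95% interval −1.58 to −0.11, n = 3 per group, unadjusted p = 0.025, adjusted p = 0.242 from limma with voom weights), and over the other whole-read settings the adjusted p ran from 0.186 to 0.504. In every rlog fit its difference was 0, which the 6 equal rounded values fix in advance, so those fits carry no information on its change.

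*Slbp* (ENSMUSG00000004642), which binds the stem-loop of histone mRNAs, read 5 in all 6 libraries. *Chaf1b* (ENSMUSG00000022945), a subunit of the histone chaperone CAF-1, read 4, 4 and 5 in CTR against 4, 4 and 4 in NPM1 KD, a difference of −0.33 (SE 0.34, adjusted p = 0.719 from limma). *Chaf1a*, its largest subunit, had 2 reads in CTR and 4 in NPM1 KD, a ratio of 2.84 (exact 95% counting interval 0.407 to 31.4). For a gene that reads lower in these bulk libraries, fewer cells in S phase and less RNA per cell cannot be told apart. By flow cytometry of N2a cells, the paper saw no significant difference in cell cycle phases upon NPM1 KD. How that relates to the values here was not tested.

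**Figure D3:**
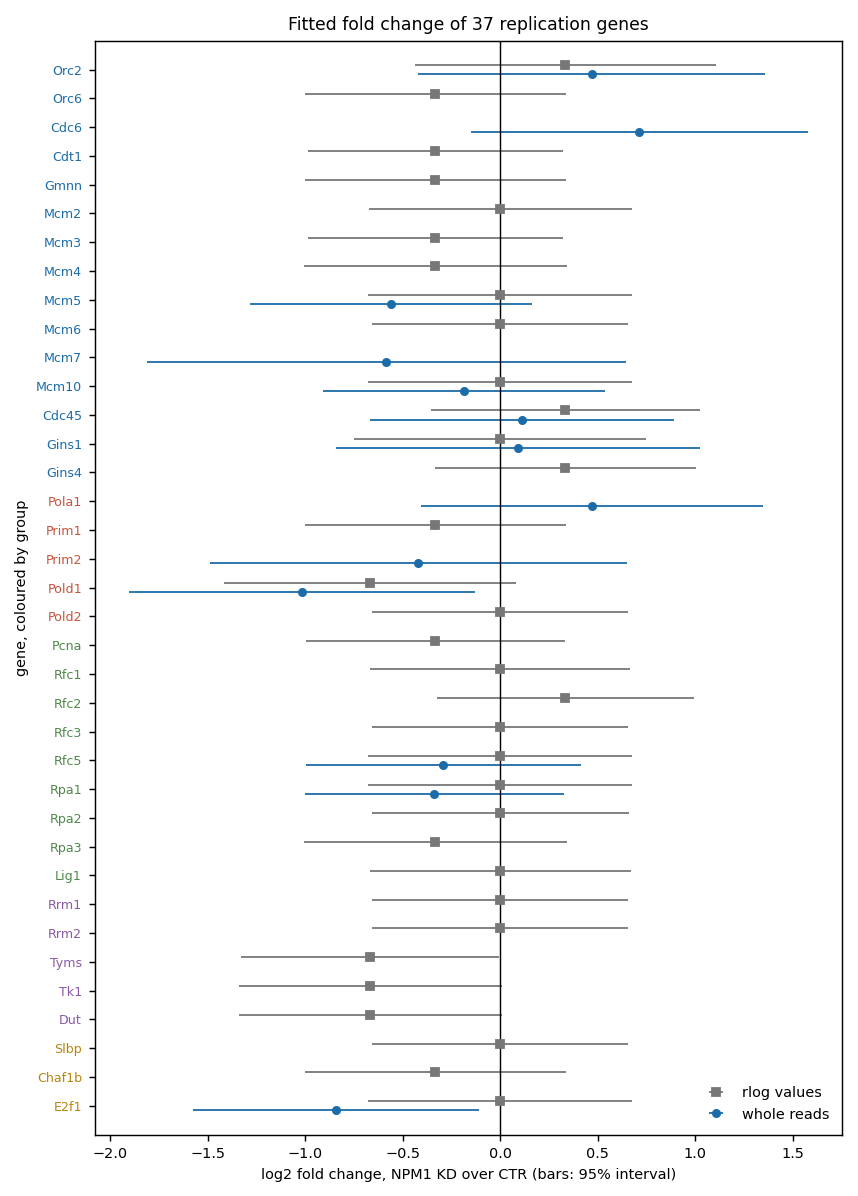
Log2 fold change (NPM1 KD over CTR) with its 95% interval for the 37 genes in a fit, in rows ordered and coloured by role. Grey squares are rlog values (33 genes) and blue circles are whole reads (13 genes). Grey intervals of genes with a single rlog value come from the variance allowed for rounding and from other genes, and do not bound the change. Intervals of *Tyms* on rlog values and of *Pold1* and *E2f1* on whole reads lie below 0, and all others cross 0.

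For the other 24 genes, which had several solutions or a mean normalised count above 30, every set of whole reads that gives both the authors' mean and the 6 deposited rlog values was listed, and the lowest and highest ratio of mean normalised counts was taken. The range is no confidence interval, and the share of sets is no probability. The model of the rlog values was fitted to genes with few reads and checked up to a mean count of 10. It is therefore extrapolated for all 24 genes, and furthest above a mean count of 30. The range lay below 0 for 4 genes, above 0 for 4 and on both sides of 0 for 16. *Tyms* had 2 sets, and both were lower upon NPM1 KD, with log2 ratios of −1.41 and −0.93. In the first set the reads were 29, 84 and 97 in CTR against 19, 19 and 18 in NPM1 KD, and in the second 34, 73 and 83 against 18, 16 and 39.

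The other ranges below 0 were those of *Mcm6* (−0.65 to −0.07), *Gmnn* (−0.31 to −0.17) and *Chaf1b* (−0.30 to −0.23). Above 0 were *Gins4* (0.36 to 1.18), *Rfc2* (0.05 to 1.39), *Rfc3* (0.23 to 0.67) and *Orc6*, whose single set gave 0.01. *Mcm6* and *Rfc3* each read 5 in all 6 libraries on the rlog scale, which shows no sign. *Tk1* ranged from −1.78 to 0.48 over 3451 sets and *Dut* from −1.38 to 0.17 over 107 sets. *Mcm4* ranged from −1.03 to 0.40, *Rpa3* from −0.92 to 0.29, *Prim1* from −1.43 to 0.72 and *Pcna* from −1.02 to 0.05. *Mcm3* ended at 0.00 from −0.66. For *Mcm2*, *Lig1*, *Pold2*, *Rrm1*, *Rrm2*, *Slbp*, *Cdt1*, *Rfc1* and *Rpa2* the range reached past 0.1 on both sides.

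**Figure D4:**
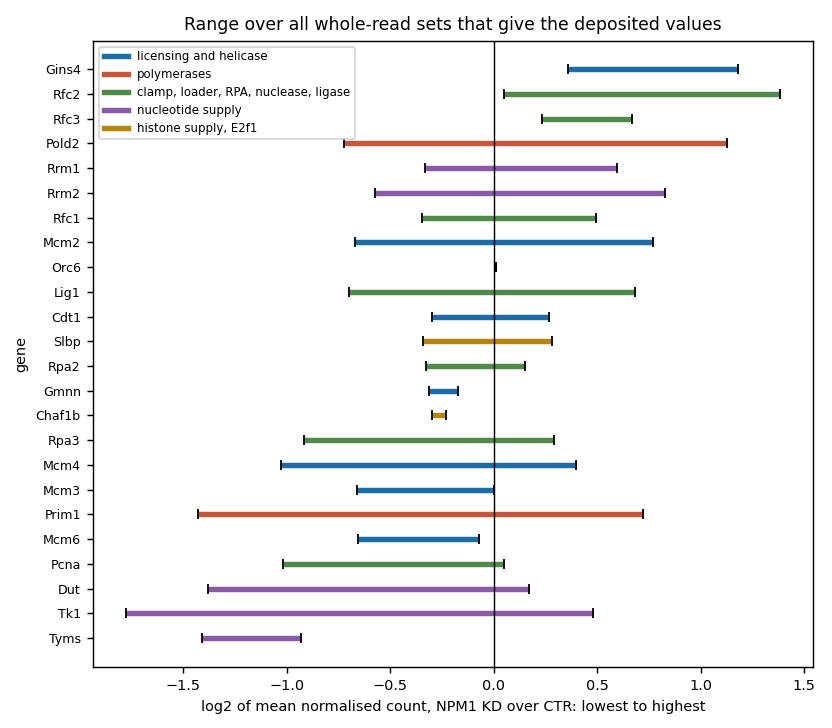
Lowest to highest log2 ratio of mean normalised counts (NPM1 KD over CTR) over all sets of whole reads that give the deposited values, for the 24 genes whose reads were not settled, coloured by role. Bars of *Tyms*, *Mcm6*, *Gmnn* and *Chaf1b* lie below 0, those of *Gins4*, *Rfc2*, *Rfc3* and *Orc6* above it, and 16 span it.

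Of the 45 genes, 6 had a mean normalised count below 3, and exons of all 45 were examined for genes on the other strand in GENCODE M21 (GRCm38). *Fen1* had 84.2% of its exonic bases under exons of the other strand (Gm10143 and *Tmem258*), *Gins2* had 67.3% (*Gse1*) and *Chaf1a* had 52.5% (*Ubxn6*). Their mean normalised counts were 0.622, 0.412 and 1.05. No other member reached 50%, and the next were *Orc2* at 29.8%, *Rfc2* at 15.1%, *Rfc4* at 12.7%, *Orc1* at 10.8% and *Rfc5* at 10.7%. Of the 15 members with any such overlap, 5 had a mean normalised count below 3, and of the 30 without any, 1 did (*Gins3*). Over all protein-coding genes with a read, 52.4% of the 84 genes with at least 50% overlap were below 3, against 31.5% of the 9264 genes without overlap. Whether the counting setting set these low values was not tested, and counts of these genes are uncertain.

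**Figure D5:**
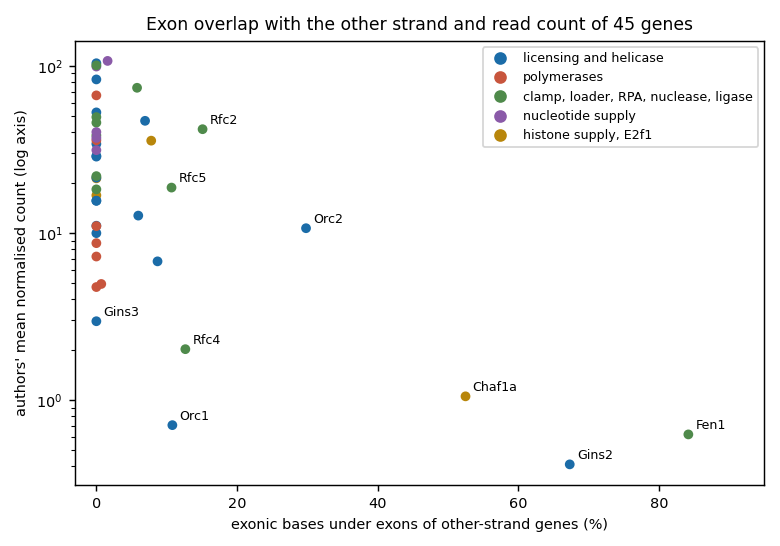
Share of exonic bases under exons of genes on the other strand (percent, GENCODE M21) against the authors' mean normalised count (log axis) for the 45 genes, 1 point per gene, coloured by role. *Fen1*, *Gins2* and *Chaf1a* are the points beyond 50%, and all have a mean normalised count of about 1 or less.

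A wider list of 87 other genes of replication, fork protection, nucleotide supply, chromatin replication and G1/S control had 53 genes on rlog values and 54 on whole reads. In both fits 0 were called higher and 0 lower at an adjusted p below 0.05 from limma, while 7 and 11 had an unadjusted p below 0.05. On rlog values 12 were higher, 17 lower and 24 equal upon NPM1 KD, with a median difference of 0. The smallest adjusted p on rlog values was 0.0757 for *Dnmt1*, the maintenance DNA methyltransferase, which read 5 in each CTR and 4 in each NPM1 KD library. *Orc5*, a subunit of the origin recognition complex, read 3 in each CTR and 4 in each NPM1 KD library (adjusted p = 0.119 from limma). On whole reads *Dnmt1* differed by −0.64 and *Orc5* by 0.996 (adjusted p = 0.287 and 0.213 from limma with voom weights). The smallest adjusted p on whole reads was 0.127 for *Umps*, which differed by 1.12. None of these genes falls under the rule for named genes, and all were chosen after their values were seen.

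For comparison, a separate list of 30 mitosis genes was used, chosen with earlier results of these data known. On rlog values 25 of them were tested, of which 2 were higher, 13 lower and 10 equal. The adjusted threshold was passed by 0 (5 had an unadjusted p below 0.05). The groups were separated downwards in 5 of the 25 on rlog values, beside 0 of the 33 replication genes and 3.28% of all tested genes. On whole reads they were separated downwards in 5 of 11 mitosis genes, beside 3 of 13 replication genes and 13.5% of all genes in the fit. The difference between the lists was not tested.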

How the data were processed

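RNA from N2a cells, 3 CTR and 3 NPM1 KD libraries, was sequenced as long reads (Oxford Nanopore SQK-PCB109 kit, GridION). The submitters' processing notes name minimap2, featureCounts, DESeq2 and GRCm39. Versions and the counting options are not given in the sources used here, and the paper does not cover this RNA-seq. The authors deposited rlog values, a score on the log2 scale, rounded to whole numbers at a size of 1 or more. The authors also deposited a mean normalised count per gene, and the fold change, standard error, statistic and p-values of their own comparison, which were not used. Repeated rows of an Ensembl ID (257 of 26913) were kept once, and 0 columns were left unassigned.

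Genes with 1 read in the 6 libraries (1272) gave the 6 size factors, and the rlog decimals of 1269 genes tied each to its library. Whole reads were then solved from each mean normalised count, alone below a mean of 10 (8804 of 8804 genes with 1 solution) and with the rounded rlog values up to 30 (1344 of 1358 genes up to 15, 1346 of 1865 above). The rlog model behind the second step was fitted to genes with few reads and checked up to a mean of 10. From there on it is extrapolated. The planned test on whole reads required 1 solution for most genes with a mean of at least 10. As only 45.0% of these had one, the planned replacement became the main test, limma 3.58.1 in R 4.3.3 with an intensity trend on rlog values, no variance below 0.0833 (that of rounding), genes with a mean of at least 10, two-sided, Benjamini-Hochberg adjustment over all genes tested and a threshold of 0.05. Limma with voom weights on whole reads, for means of 5 to 30, was an alternative whose window was chosen after the data were seen. Being single-solution above 15 depends on the rlog pattern of the gene, and its effect on the calls was not tested. Scripts were tested on simulated data.

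All 45 genes are named. Values per library are given for those past the threshold, for those with separated groups and an unadjusted p below 0.05, for the 2 with the highest mean count in each role and for *Npm1*. Values per library of other members were added after they were seen. The members, roles and lists were chosen with earlier results of these data known. Alternatives were the replicate block, leaving out each library, other minimum counts, other library sizes, no allowance for rounding, and unweighted fits with pseudocounts of 0.5, 1 and 5. Exact counting intervals used scipy 1.17.1.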

Additional observations from a re-analysis of the deposited data

How the results depend on the processing

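Of the 45 genes, none was called in any of the 27 fits that tested it, and the smallest adjusted p was 0.136 (*Pold1*). Of their fold changes under alternatives, 341 of 525 kept their sign, 136 stayed at 0, 12 went to 0, 30 went from 0 to a sign and 6 took the opposite sign. For the 12 genes with a single rlog value across the 6 libraries, every rlog fit must give 0. Their zeros follow from the rounding and do not show stability. The 30 that went from 0 to a sign were rlog differences of 9 genes, 6 of them on whole reads and 24 in other rlog fits. In those rlog fits *Gins1*, *Mcm2*, *Rfc1* and *Rpa2* took both signs, between −0.33 and 0.33, as single libraries were left out. The 6 opposite signs arose when 1 library was left out of the whole-read fit. Leaving out each library in turn, *Mcm10* ran from −0.53 to 0.0719 (without NPM1 KD replicate 2), *Rfc5* from −0.52 to 0.0812 (without NPM1 KD replicate 1), *Cdc45* from −0.14 (without CTR replicate 3; −0.09 without NPM1 KD replicate 3) to 0.31, and *Gins1* from −0.41 (without NPM1 KD replicate 3; −0.19 without CTR replicate 3) to 0.66. Depth limits what can be seen, since the median of the 45 mean normalised counts was 21.4. The rounding can hide differences under 1 on the rlog scale, and larger differences in reads. *Aurkb*, of the mitosis list, read 4 in all 6 libraries and differed by −1.23 on whole reads. In the main rlog fit even a drop of 1 in every NPM1 KD library did not pass, as in *Dnmt1*. The causes of the changes below were not tested.

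On rlog values, the counts of all genes called higher and lower (4 and 25) were 0 to 2 and 5 to 10 when 1 library was left out, whichever it was. They were 1 and 10 with no filter on low values, 123 and 178 with no allowance for rounding (1 and 1 in the wider replication list), and 24 and 55 on whole reads. On whole reads, 24 and 55 became 2 to 10 and 1 to 21 when 1 library was left out. They were 2 and 0 from a mean count of 10, 0 and 0 for 5 to 15, 69 and 196 with no filter (wider list 1 lower), and 43 higher with library totals. In unweighted limma they were 116 lower with a pseudocount of 1, 99 with 0.5 and 47 higher and 196 lower with 5, each with 2 lower in the wider list. Of the wider list, 0 others were called. Whether replicate numbers pair the libraries is not settled by the labels. Same-numbered libraries correlated by 0.00819, 0.000391 and 0.0285 in their deviations on rlog values. On whole reads the correlations were 0.015, −0.0097 and 0.045. With the replicate block, 1 and 7 genes were called on rlog values and 64 and 102 on whole reads, and 0 of the 45.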
